A study of Mus musculus with 6 samples.

Results

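The regions described here are stretches of the mouse genome at which a CTCF peak was called in every library, but at which the point of highest signal lay elsewhere in the mutant libraries than in the wild-type libraries. Each peak of a library has a summit, the base with the highest signal inside it. The members were chosen by their measured summit positions. A region was a member when the 2 wild-type summits lay within 50 bp of each other, the 2 mutant summits likewise, and the mean mutant summit lay at least 60 bp from the mean wild-type summit. Of 57662 regions in the deposited table, 30312 on chromosomes 1 to 19 and X held a peak in all 4 lists. In 29338 of these both pairs of replicates met the 50 bp condition, and 239 were displaced, which is 0.815% of the regions that could be.

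CTCF binding was mapped by chromatin immunoprecipitation with sequencing (ChIP-seq), using mouse embryonic stem cells whose endogenous CTCF carried an EGFP-AID tag and was degraded by auxin. The cells instead expressed an introduced CTCF, either wild type (WT_CTCF) or with a threonine replaced by alanine, so that the residue could not carry O-GlcNAc (MUT_CTCF). There were 2 CTCF ChIP libraries per genotype, described as biological replicates, and Drosophila chromatin was added as a spike-in to each. Both genotypes share the tagged endogenous protein and the auxin treatment, and each was a picked, drug-selected clone, so a difference between genotypes cannot be told apart from a difference between clones. A list of CTCF peaks holds no marker by which the cell type could be checked, and read depth is unknown.

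The zinc fingers of CTCF bind a long, directional DNA motif, and the protein, together with the ring-shaped cohesin complex, marks the ends of chromatin loops. The direction of the motif on the DNA sets the direction in which cohesin is held, so which of several neighbouring motifs is occupied bears on where a loop ends. O-GlcNAc is a single sugar placed on serine and threonine residues of nuclear and cytoplasmic proteins by the enzyme OGT. A ChIP-seq summit usually lies close to the bound motif, because sheared fragments pile up over the protein.

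To see the bases under the moving summits, the regions of the mm9 build were searched on both strands for the CTCF core consensus of 13 bases, allowing 1 mismatch, and matches are printed in capitals. The first sequence was chosen because both matches fit in a short stretch. It lies in an intron of Rtkn2, and its 2 core matches are the same 13 bases in the same direction, 78 bp apart. Both WT_CTCF summits fell on base 17 of the printed stretch, the centre of the first match. Both MUT_CTCF summits fell on base 109, past the second match, which ends at base 101.
Rtkn2, chr10:67461034-67461152, plus strand: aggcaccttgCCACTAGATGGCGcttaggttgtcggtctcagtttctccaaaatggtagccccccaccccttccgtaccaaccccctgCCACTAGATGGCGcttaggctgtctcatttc

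The second sequence is the region with the strongest signal of those with a different match at each summit. It is intergenic, 29752.5 bp from the start of Rbfox2, which encodes a splicing regulator, and its 2 matches point away from each other. The WT_CTCF summits were at bases 182 and 193 of the stretch, nearer the match at bases 223 to 235, and both MUT_CTCF summits were at base 33, beside the match at bases 11 to 23.
Rbfox2, chr15:77167049-77167293, plus strand: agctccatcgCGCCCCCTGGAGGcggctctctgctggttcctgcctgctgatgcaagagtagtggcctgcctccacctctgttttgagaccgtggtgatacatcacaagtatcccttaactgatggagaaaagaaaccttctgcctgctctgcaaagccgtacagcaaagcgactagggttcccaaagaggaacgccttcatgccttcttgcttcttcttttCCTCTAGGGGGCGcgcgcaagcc

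Pairs further apart are given as the 30 bases around each match, read along the strand on which the core was found. They are shown because each summit had a match of its own. Mki67ip encodes a nucleolar protein that binds Ki-67, and the wild-type match lay near its transcription start. Krt8 encodes a keratin of simple epithelia, and Trim71 an RNA-binding ubiquitin ligase of the early embryo. The regions near these last 2 genes are intergenic. Their mean WT_CTCF summits lay 19842.5 bp from the start of Krt8 and 18005.5 bp from that of Trim71.
Mki67ip, WT_CTCF site, chr1:120218315-120218344, plus strand: gtttgtggCCAGTAGGTGGCGctcgagctg
Mki67ip, MUT_CTCF site, chr1:120217457-120217486, minus strand: ctgcagtggCCAGAAGAGGGCAtcagaaca
Krt8, WT_CTCF site, chr15:101814935-101814964, minus strand: accatctttCCACTAGAGGGCAgcagagga
Krt8, MUT_CTCF site, chr15:101814523-101814552, minus strand: cccatctgtCCAGCAGGAGGCAgcacctag
Trim71, WT_CTCF site, chr9:114491484-114491513, minus strand: ccatggaggCCAGAAGAGGGCGctggatcc
Trim71, MUT_CTCF site, chr9:114490732-114490761, minus strand: taaagctcgCCACTGGGGGGCAgaggtgag

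Other members held a single match, which lay at the summit of only 1 genotype. Sorcs2, a neuronal receptor of the sortilin family, and H2-DMa, which helps load peptides onto MHC class II, had it at the WT_CTCF summit. Rsad1 and Spata6, the latter needed for the neck of the sperm tail, had it at the MUT_CTCF summit. The Sorcs2, H2-DMa and Rsad1 regions touch the promoter and 5′ UTR of the gene named. The region near Spata6 is intergenic, with its mean WT_CTCF summit 32718 bp from the gene start.
Sorcs2, chr5:36740843-36740872, minus strand: tgcgcgcggCCGGCAGGTGGCGgtgctccc
H2-DMa, chr17:34272356-34272385, plus strand: ccgaccttCCACCAGGGGGCGgaggtctcc
Rsad1, chr11:94410593-94410622, minus strand: caacagtgtCCACCAGGTGGCGccgcagac
Spata6, chr4:111360427-111360456, plus strand: ctctgtccCCAGCAGGGGGCGctcaaaact

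The displacements fell into a large group of short ones and a long tail. Their sizes chose the members and are given as a description. The median was 88 bp, a 25th percentile of 68.2 bp, a 75th percentile of 307 bp and a highest value of 939 bp. Between 60 and 100 bp there were 134 regions, between 100 and 300 bp there were 44, and 61 were displaced by 300 bp or more. These ranges were chosen after the values were seen. The mutant summit lay at the higher coordinate in 107 of 239 regions, so neither direction along the chromosome prevailed by much. Members lay on all 20 chromosomes searched.

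The rule limited how far replicates of a genotype could lie apart, so their closeness is a description. The distance between the 2 WT_CTCF summits had a median of 8 bp in members and 7 bp in the 29099 regions that were not displaced. For MUT_CTCF the medians were 5 and 8 bp. Every WT_CTCF library was at least 60 bp from every MUT_CTCF library in 192 of 239 members. The 50 bp condition on replicates mattered to the count. With 1 library left out, and so no condition on the replicates of that genotype, the rule gave 378 regions without WT_CTCF replicate 1, 368 without WT_CTCF replicate 2, 446 without MUT_CTCF replicate 1 and 461 without MUT_CTCF replicate 2.

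At the edge of the rule, 4 regions were displaced by exactly 60 bp, in Gm16565, in an intron of Arhgef10l, near Irx5 and at H2-DMa. In the Arhgef10l region the WT_CTCF summits were at bases 347 and 346 and the MUT_CTCF summits at bases 302 and 271. On the other side 5 regions were displaced by 59.5 bp, among them those near Mtus2, Grm2 and Igfbp1. The displacements ran on across the limit without a gap.

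**Figure D1:**
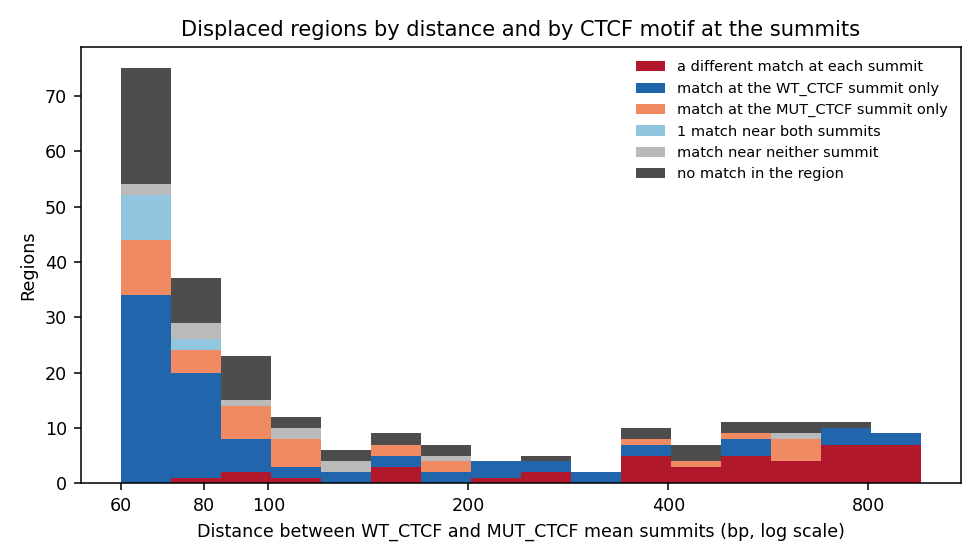
The number of the 239 displaced regions (vertical axis) by distance between the mean WT_CTCF and mean MUT_CTCF summit in bp (horizontal axis, log scale), stacked by where the CTCF core matches lay, with near meaning within 50 bp. Of the 41 regions with a different match at each summit, 31 were displaced by 300 bp or more, while 50 of the 84 with a match at the WT_CTCF summit only were displaced by less than 80 bp.

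Most members held a CTCF motif, and many held more than 1. A core match was found in 183 of 239 members (76.6%) and in 20441 of 29099 regions that were not displaced (70.2%). Intervals of equal width placed 5000 bp to either side of the members held a match in 33 of 478 cases (6.90%). Members had at least 2 matches in 55 regions (23.0%), against 4.9% of the others, and 3 members had 3 or more. A region that held 2 matches at least 60 bp apart was displaced in 55 of 1317 cases (4.18%), and a region without such a pair in 184 of 28021 cases (0.657%).

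Members were wider than the rest, and wide regions hold more motifs. The median width was 682 bp in members and 590 bp in the others. Among regions of 500 to 700 bp, 8 of 92 members (8.70%) had at least 2 matches, against 2.37% of all 14705 eligible regions of that width. Among those of 1200 bp or more the shares were 63.9% of 36 members and 48.1% of 503 eligible regions. Among those of 1000 to 1200 bp they were close, at 42.1% of 19 members and 38.7% of 511 eligible regions. The part of width in the higher share of members was not tested. The widths in these bins were chosen after the values were seen.

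Over all members with a match, the WT_CTCF summits lay nearer to it than the MUT_CTCF summits did. The medians differed at displacements below 300 bp and not at 300 bp or more. The median distance from the summit to the nearest match in members was 17 bp in WT_CTCF replicate 1 and 17 bp in replicate 2. It was 55 bp in MUT_CTCF replicate 1 and 55 bp in replicate 2. In the other regions it was 10 bp in both WT_CTCF libraries and 11 bp in both MUT_CTCF libraries. The mean summits of those regions lay less than 60 bp apart by the rule, so close values for both genotypes largely follow from it. By size of displacement, the median distances of the mean WT_CTCF and mean MUT_CTCF summits were 15 and 60 bp in the 97 members with a match displaced by less than 100 bp. They were 41 and 82.5 bp in the 35 displaced by 100 to under 300 bp. In the 51 displaced by 300 bp or more they were 13.5 and 13 bp. There the medians showed no gap, but the 75th percentiles were 18.5 bp for WT_CTCF and 71.25 bp for MUT_CTCF. By the medians over all members, both genotypes stood further from the motif than the same libraries did elsewhere. No test was made, because the summits that give these distances also chose the members.

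**Figure D2:**
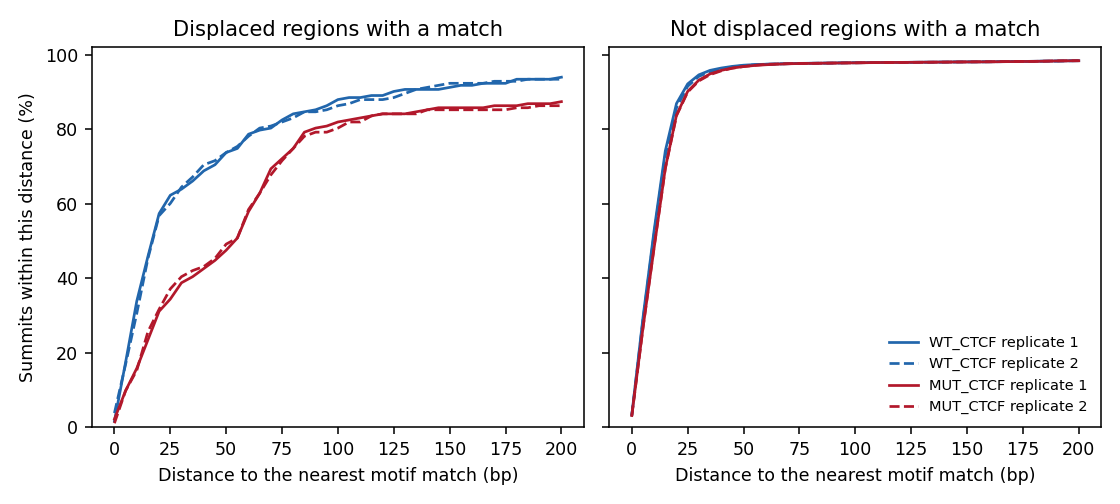
The share of summits, in percent, that lay within a given distance in bp of the nearest CTCF core match, for each of the 4 libraries, in the 183 displaced (left) and 20441 not displaced (right) regions with a match. At 50 bp the WT_CTCF lines of displaced regions stood at 73.8% in both replicates and the MUT_CTCF lines at 47.5% and 49.2%, whereas all 4 lines of the other regions lay between 96.8% and 97.2%.

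By the nearer summit, the match belonged to WT_CTCF in 111 of the 183 members with a match, to MUT_CTCF in 70 (38.3%) and to neither in 2. In the other regions it was nearer the MUT_CTCF summit in 46.4% and nearer the WT_CTCF summit in 50.9%. Counting a match as at a summit when its centre lay within 50 bp, members fell into 6 classes. A match lay at the WT_CTCF summit only in 84 members and at the MUT_CTCF summit only in 36. A different match lay at each summit in 41. A single match was within reach of both summits in 10, a match was present but at neither summit in 12, and 56 members had no match.

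By the medians, the regions with a different match at each summit had the longest displacements and were the widest. Their median displacement was 492.5 bp, against 74.2 bp where the match was at the WT_CTCF summit only, 95.2 bp where it was at the MUT_CTCF summit only and 79.8 bp with no match. The 2 matches were 78 to 858 bp apart, with a median of 523 bp. They pointed the same way in 19 regions, towards each other in 10 and away from each other in 12. The match at the highest signal was thus on the same strand in both genotypes in 19 regions and on opposite strands in the others.

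**Figure D3:**
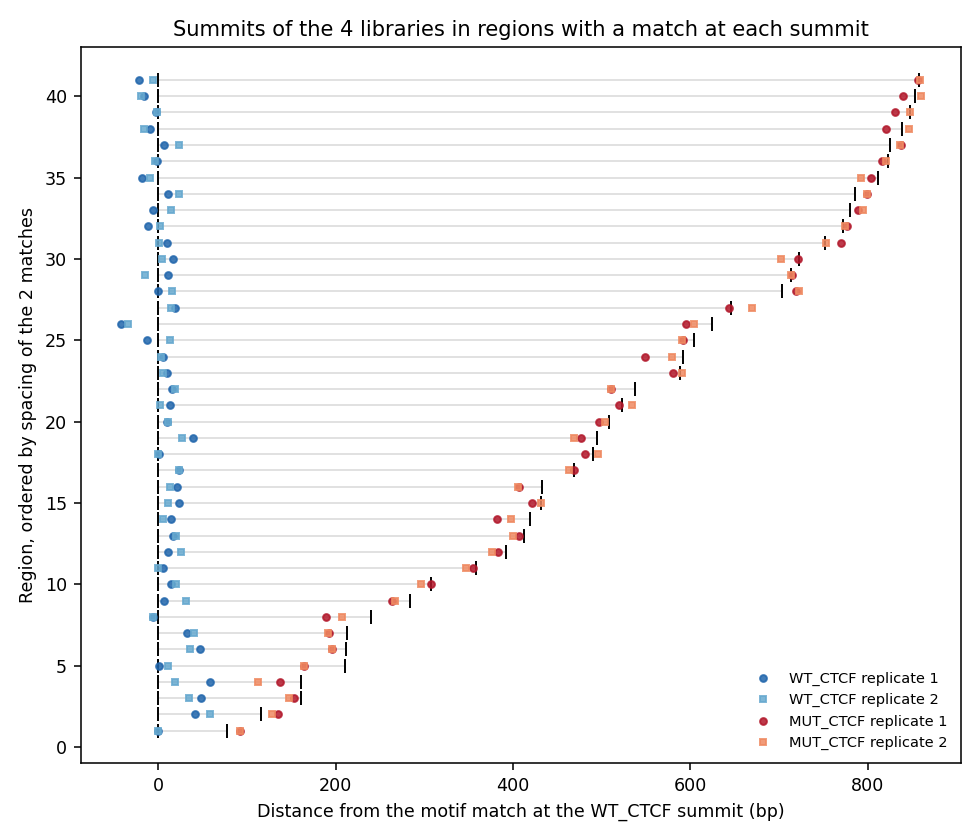
Summit positions of the 4 libraries in the 41 regions with a different match at each summit, as distance in bp from the match at the WT_CTCF summit (horizontal axis), 1 region per row and ordered by the spacing of the 2 matches. Black ticks mark the matches, and rows are turned so that the match at the MUT_CTCF summit is on the right. In every row the mean of the 2 blue WT_CTCF points is within 50 bp of the left tick and the mean of the 2 red MUT_CTCF points within 50 bp of the right tick. This is how the class was defined.

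None of the 4 sequence measures taken favoured the same copy in every region. The copy at the WT_CTCF summit had fewer mismatches to the core in 10 regions, the copy at the MUT_CTCF summit in 6, and they tied in 25. The core held more CpG sites, the dinucleotide that can be methylated, in the wild-type copy in 14 regions and in the mutant copy in 8, with 19 ties. G+C content in the 101 bp around the summit was higher at the WT_CTCF summit in 15 regions and at the MUT_CTCF summit in 25. CpG sites in that window were more numerous at the WT_CTCF summit in 15 and at the MUT_CTCF summit in 15.

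The wild-type copy was seldom without a mutant peak. A peak of both MUT_CTCF libraries covered the wild-type copy in 38 of the 41 regions, and a peak of neither covered it in 3. In 18 of the 41 at least 1 library had more than 1 peak in the region, and in 9 of these both MUT_CTCF libraries had at least 2 peaks where both WT_CTCF libraries had 1. Over all members, the WT_CTCF summit lay under a peak of both MUT_CTCF libraries in 219 of 239 regions and of neither in 8, and the MUT_CTCF summit lay under a peak of both WT_CTCF libraries in 239. Membership required a peak in every list, and the chosen peaks were wide beside most displacements. Their median widths in members were 610 and 649 bp in WT_CTCF replicates 1 and 2, and 383 and 342 bp in MUT_CTCF replicates 1 and 2. The median displacement was 88 bp. Over all members, cover of the summit of the other genotype thus largely follows from the rule and the peak widths. The counts describe the members and do not show whether the genotypes differed in where peaks were called.

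The single regions show how this looks in each library. In the Mki67ip region (chr1:120217199-120218616) the WT_CTCF summits were at bases 1153 and 1137 and the MUT_CTCF summits at bases 274 and 272. The scores of the chosen peaks were 1981 and 2240 in WT_CTCF and 1433 and 1251 in MUT_CTCF. Each WT_CTCF list had 1 peak there and each MUT_CTCF list had 2, and the chosen mutant peaks did not reach the wild-type summit, which lay 73 bp from the transcription start.

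The regions with the next longest displacements among those with several peaks were alike in this. In an intron of Qprt, which encodes an enzyme of NAD synthesis, the summits were at bases 1114 and 1117 in WT_CTCF and 258 and 238 in MUT_CTCF. Near Actr10, which encodes a dynactin subunit, they were at bases 366 and 359 in WT_CTCF and 1195 and 1221 in MUT_CTCF. Near Slc7a1, a transporter of cationic amino acids, they were at bases 379 and 380 in WT_CTCF and 1212 and 1229 in MUT_CTCF. In all 3 the WT_CTCF lists had 1 peak each while at least 1 MUT_CTCF list had 2. The mean WT_CTCF summits lay 27457.5 bp from the start of Actr10 and 51258.5 bp from that of Slc7a1.

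Other pairs were spanned by 1 peak in each list. Near Trim71 the summits were at bases 1045 and 1054 in WT_CTCF and 285 and 302 in MUT_CTCF, with scores of 1509, 1412, 689 and 656 in that order. In an exon of Nlrc5, a transactivator of MHC class I genes, they were at bases 380 and 372 in WT_CTCF and 766 and 765 in MUT_CTCF. Near Col1a1, a chain of type I collagen, they were at bases 776 and 761 in WT_CTCF and 404 and 411 in MUT_CTCF. The start of Col1a1 was 69500.5 bp from the mean WT_CTCF summit. In these regions the mutant summit moved within a peak and not between peaks. The region near Krt8 held 3 matches, with 2 peaks in the list of WT_CTCF replicate 2, and its summits moved from bases 1191 and 1188 in WT_CTCF to bases 801 and 808 in MUT_CTCF.

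Having several peaks was more frequent among members than elsewhere. At least 1 library had 2 or more peaks in 27 of 239 members (11.3%) and in 1.4% of the others. Members were also wider, and the shares were not compared at equal width. The rule takes the peak with the highest score, so a second peak can itself give a displacement. In 21 of the 27 the second peak was in MUT_CTCF lists only, in 2 in WT_CTCF lists only and in 4 in both. In the 407 other regions with several peaks the counts were 185, 103 and 119 in the same order. The other 212 members had exactly 1 peak in each list.

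Where a single match lay at 1 summit, the long displacements led away from it or towards it. In the Spata6 region (chr4:111359548-111360784) both WT_CTCF summits were at base 324, 570 bp from the only match, and the MUT_CTCF summits were at bases 894 and 896, 1 bp from it. The scores were 1450 and 1451 in WT_CTCF and 852 and 987 in MUT_CTCF. In the Rsad1 region the WT_CTCF summits were at bases 355 and 395 and the MUT_CTCF summits at bases 534 and 535, with the match 160 bp from the mean of the first and 0.5 bp from the mean of the second. In both regions the mutant summits sat on the motif and the wild-type summits did not.

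The same was seen at lower precision in 2 further intergenic regions. Near Ppp5c, which encodes a protein phosphatase, the summits were at bases 395 and 383 in WT_CTCF and 315 and 273 in MUT_CTCF, with the match 20 bp from the mutant mean. Near Gm9953 they were at bases 854 and 833 in WT_CTCF and 489 and 484 in MUT_CTCF. The start of Gm9953 was 116872 bp from the mean WT_CTCF summit. The Ppp5c region shows a spread between mutant replicates of 42 bp, close to the limit of 50 bp.

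The reverse held at the strongest member. In the H2-DMa region (chr17:34271902-34272822) both WT_CTCF summits were at base 461 and both MUT_CTCF summits at base 401, exactly 60 bp apart. The match lay 8 bp from the first and 68 bp from the second. Its scores were 15785 and 15127 in WT_CTCF and 9824 and 9252 in MUT_CTCF, and the authors' mean signal over the 4 libraries was 3320.5, the highest of the members. G+C content fell from 72.3% at the WT_CTCF summit to 58.4% at the MUT_CTCF summit.

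Longer moves off the only match were found in Pvrl2, which encodes the adhesion protein nectin-2, in 1700001O22Rik and in Bean1. At the Pvrl2 promoter the summits were at bases 247 and 250 in WT_CTCF and 807 and 811 in MUT_CTCF, with scores of 1240 and 1466 in WT_CTCF and 246 and 275 in MUT_CTCF. In the 1700001O22Rik region they were at bases 632 and 629 in WT_CTCF and 322 and 320 in MUT_CTCF, and G+C content rose from 54.5% to 75.2%. In the Bean1 region, which touches its 3′ UTR, both WT_CTCF summits were at base 1159 and the MUT_CTCF summits at bases 391 and 403. A core match with more than 1 mismatch at the mutant summit is not counted in these statements. The longest displacement among regions with 1 peak per list after that of Sorcs2 was the Bean1 region, where the mutant summit lay 762 bp away. An intronic region of Gm20388 held 2 matches, but its MUT_CTCF summits, both at base 326, lay more than 100 bp from the nearest. Its WT_CTCF summits were at bases 1054 and 1061, beside the other match.

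The scores of members were lower in MUT_CTCF, as they were elsewhere. The median score was 575 and 648 in WT_CTCF replicates 1 and 2, and 173 and 175 in MUT_CTCF replicates 1 and 2. In the other regions the medians were 582, 621, 269 and 250 in the same order. Both MUT_CTCF scores were below both WT_CTCF scores in 235 of 239 members and in 28017 of 29099 other regions, so a lower mutant score was not particular to members. The ratio of the mean MUT_CTCF to the mean WT_CTCF score had a median of 0.351 in members and 0.445 in the others. What the score measures is not given in the sources used here, so it describes the lists and is not read as the amount of CTCF bound.

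**Figure D4:**
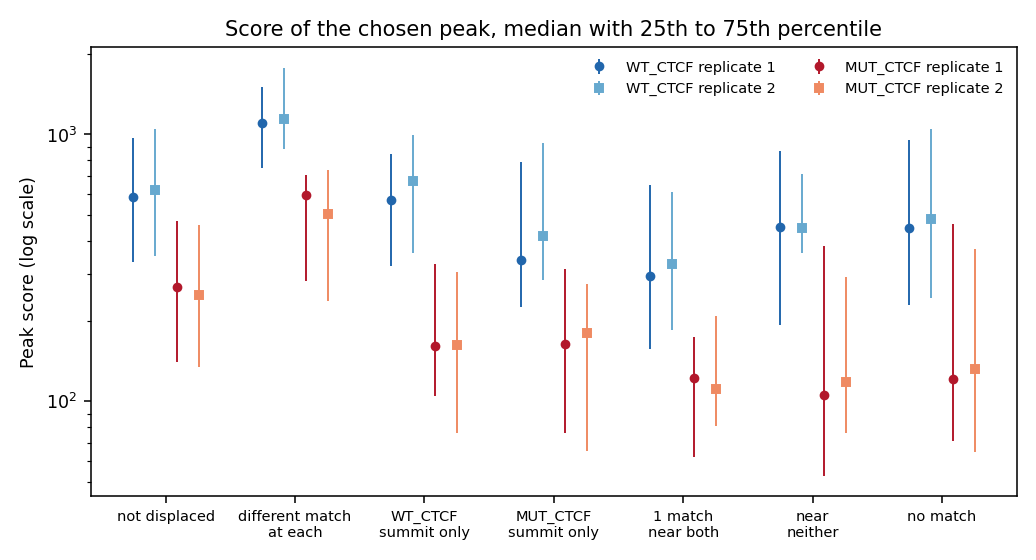
Peak score (log scale) of the chosen peak in each of the 4 libraries, for regions that were not displaced and for the 6 motif classes of displaced regions. Points are medians and bars run from the 25th to the 75th percentile over regions. The class with a different match at each summit had the highest medians among displaced regions, at 1103 and 1142 in WT_CTCF and 594 and 503 in MUT_CTCF.

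A low mutant score went with short displacements more than with long ones. Of the 7315 eligible regions with a mean MUT_CTCF score below 136, 64 were displaced by less than 100 bp (0.875%), against 17 of the 7348 with a score of 466 or more (0.231%). For displacements of 300 bp or more the counts were 13 and 30. The part of score in the displacements was not tested. Regions with a different match at each summit also had a high authors' mean signal, with a median of 645.5 against 290 in all members. The 60 regions that had a different match at each summit but were not displaced had a median of 701. Their mean summits lay a median of 14.5 bp apart, against 492.5 bp in the displaced class. This distance is the one by which the rule parted the sets, so the difference follows from it. The spacing of the matches was not compared between the sets. Median widths were 784 bp in these 60 regions, 1201 bp in the displaced class and 682 bp in all members. The part of width in the signal was not tested.

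Members touched promoters more often than other regions. A promoter was taken as the 3000 bp before a transcription start. One was touched by 71 of 239 members (29.7%) and 15.1% of the others. Promoters of protein-coding genes were touched by 64 members (26.8%) and by 3583 of the others (12.3%). Members touched a 5′ UTR in 38 cases (15.9%), against 3.3% of the others. Introns without an exon were touched by 60 members (25.1%) and by 36.2% of the others, and 85 members (35.6%) were intergenic, against 43.0%. The median distance from the WT_CTCF summit to the nearest start of a protein-coding gene was 7494 bp in members and 16284.5 bp elsewhere.

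At coding promoters the summit moved from G+C-rich to less G+C-rich sequence. Many mammalian promoters lie in CpG islands, stretches rich in G+C and in CpG sites. In the 64 members at coding promoters, the median G+C content of the 101 bp around the summit was 65.8% and 65.3% in WT_CTCF replicates 1 and 2, and 56.9% and 57.4% in MUT_CTCF replicates 1 and 2. Both MUT_CTCF values were below both WT_CTCF values in 49 of the 64, above both in 9, and overlapped in 6. At coding promoters that were not displaced, all 4 libraries had a median of 53.5%, and the mutant values were below in 17.3% and above in 15.3%. In the 175 members elsewhere they were below in 74 and above in 64.

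**Figure D5:**
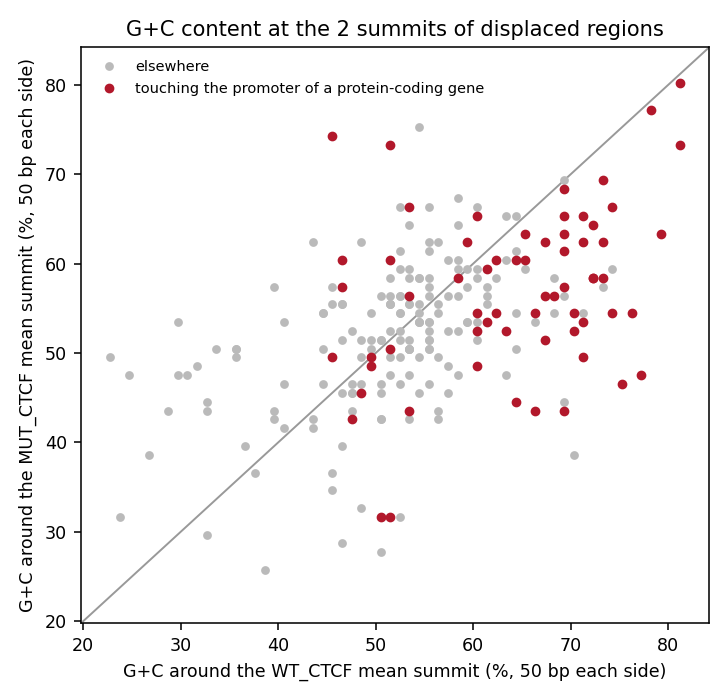
G+C content in percent of the 101 bp around the mean WT_CTCF summit (horizontal axis) and around the mean MUT_CTCF summit (vertical axis), 1 point per displaced region, with the line of equal content. Of the 64 red points, which touch the promoter of a protein-coding gene, 52 lie below the line, while the grey points of the 175 other regions lie on both sides.

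A summit that starts in G+C-rich sequence moves to less G+C-rich sequence in most directions, so the mutant summit was also compared with a mirror point at the same distance on the other side of the WT_CTCF summit. At the coding promoters the mutant summit had lower G+C than the mirror point in 40 of 64 members, higher in 19 and equal in 5. The medians of the mean summits were 66.3% at WT_CTCF, 57.4% at MUT_CTCF and 60.4% at the mirror point. Over all 239 members the mutant summit was lower than the mirror point in 100 and higher in 125. At displacements of 60 to 100 bp it was lower in 73 and higher in 53, and at 300 bp or more lower in 12 and higher in 44. The mutant summit lay inside a called peak by the rule, while a mirror point could fall outside the region. It did so at Sorcs2 and Bean1, which had long displacements, and how often it did was not counted. The counts over all members and at 300 bp or more can thus set a peak beside its flank. The comparison with a mirror point was added after the values were seen.

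Displacement was more frequent where the WT_CTCF summit lay in G+C-rich sequence. Below 60% G+C, 0.652% of eligible regions at coding promoters and 0.606% of those elsewhere were displaced. At 60 to 70% the shares were 3.76% (25 of 665) and 1.29% (23 of 1779). At 70% or more they were 9.55% (21 of 220) and 6.06% (8 of 132). In all 21 promoter members and all 8 others at 70% or more, the mutant summit had the lower G+C content. This range was set by a high value at the WT_CTCF summit, so a lower value at another point is likely. No mirror point was compared within these ranges. Below 60% the mutant summit had the lower G+C content in 7 of 18 promoter members and in 63 of 144 members elsewhere. Both at promoters and elsewhere the share thus rose with G+C content, and the part of G+C content in the displacements was not tested. These ranges were also chosen after the values were seen.

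In most members at coding promoters the mutant summit lay further from the gene start. A summit that begins close to a gene start moves away from it in most directions, and no mirror point was compared for this distance. At coding promoters the median distance from the start was 165.5 bp for the WT_CTCF and 306 bp for the MUT_CTCF summit, and the mutant summit was further away in 48 of 64 members. At coding promoters that were not displaced, the medians were 975.5 and 974.5 bp, and the mutant summit was nearer the start in 1651 of 3583. The mean summits there lay less than 60 bp apart by the rule, so close medians largely follow from it. In 42 of the 64 the mutant summit was both further from the start and lower in G+C. The WT_CTCF summit lay within 300 bp of a start in 39 of the 64.

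The Sorcs2 promoter had the longest displacement of all members, 939 bp. Its WT_CTCF summits were at bases 131 and 119 of the region (chr5:36740730-36742047) and its MUT_CTCF summits at bases 1068 and 1060. The mean summit moved from 66 to 1005 bp from the start, from 77.2% to 47.5% G+C, and from 12 to 0 CpG sites in 101 bp. The scores were 297 and 306 in WT_CTCF and 146 and 74 in MUT_CTCF, each below the median of members in that library. The only core match lay 3 bp from the WT_CTCF summit. Each list held 1 peak there.

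The 6 promoter members with the highest authors' mean signal included H2-DMa, Rsad1 and Mki67ip, described above, with displacements of 60, 159.5 and 872 bp. The other 3 were displaced by 63 to 75 bp. At Man2b2, which encodes a mannosidase, the summits were at bases 355 and 379 in WT_CTCF and 430 and 431 in MUT_CTCF, and G+C content went from 73.3% to 58.4%. At 1810032O08Rik they were at bases 391 and 390 in WT_CTCF and 314 and 317 in MUT_CTCF, and G+C content rose from 53.5% to 66.3%. At Myo15b, an unconventional myosin gene, they were at bases 278 and 286 in WT_CTCF and 353 and 337 in MUT_CTCF, with 78.2% and 77.2% G+C. None of these 3 regions held a core match, and the direction of the change in G+C was not shared by them. Of the 64 promoter members 25 had no match (39.1%), and at coding promoters that were not displaced 35.1% had none.

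Few members lay at the gene lists examined. The clustered protocadherin genes, which give neurons their surface identity and are chosen through CTCF sites, held 55 eligible regions, of which 2 were displaced. In the Pcdhb14 region the summits were at bases 235 and 231 in WT_CTCF and 304 and 319 in MUT_CTCF, and in the Pcdhb20 region at bases 199 and 197 in WT_CTCF and 377 and 371 in MUT_CTCF. The second was weak, with scores of 195, 230, 58 and 26. Of 13 eligible regions in the Hox clusters, which pattern the body axis, 14 at imprinted genes, 11 at naive pluripotency genes, 5 at germ-layer regulators, 13 at cohesin and CTCF genes and 5 at genes of O-GlcNAc and hexosamine metabolism, 0 were displaced. At a background of 0.815% a count of 0 in lists this small says nothing about the lists.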

How the data were processed

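The authors aligned the ChIP-seq reads to mm9 and called peaks in each of the 4 ChIP libraries separately. The submitters' processing notes name Trim Galore 0.4.4, Bowtie2 2.3.4.1, MACS2 2.1.1.20160309, deepTools 3.1.1 and DESeq2 1.38.0. Each deposited peak list gives positions, a summit offset in bp and a score, whose definition, cutoff and use of the input are not given in the sources used here. The authors' deposited table of joined regions gives a mean signal over the 4 libraries, scaled by the spike-in, and columns of their own comparison (fold change, error, statistic and p-values), which were not used. No sample column was left unused (0). The input libraries were not analysed here.

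Per region and list, the overlapping peak (1 bp or more) with the highest score gave the summit. Python 3.11.15 with pandas 2.3.3 and numpy 2.4.6 was used. The core search, G+C content and annotation (GENCODE vM1) used the mm9 (NCBIM37) reference. A region touches a feature when 1 bp or more overlaps, and introns and exons are of any annotated gene. The rule and the search were tested on simulated regions. All values that describe the members come from the contrast that chose them, so no test was made and the regions that were not displaced stand beside them. Shares over regions are counts of regions, not of independent samples.

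The regions named are the 4 longest displacements with 1 peak per list and the 4 with several, the 6 of highest authors' mean signal with a match at each summit, the 4 of highest signal with a single match nearer each genotype's summit, the 6 of highest signal at coding promoters, members in the gene lists, and the 3 on each side of the limit. The members and gene lists were chosen with earlier results of these data known. Alternatives changed the displacement minimum, the replicate tolerance, the overlap, the score filter, the motif mismatches, the promoter definition and the libraries.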

Additional observations from a re-analysis of the deposited data

How the results depend on the processing

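Of 76 values under alternative settings, 45 moved little, 31 moved and 0 reversed. The number of displaced regions was 757 at a minimum of 40 bp, 105 at 100 bp and 91 with all scores at or above their pooled median of 250, and it ran from 368 to 461 with 1 library left out. Nearer matches at the mutant summit made up 47.7% at 100 bp and 45.8% with the score filter, and 30.3% to 45.1% with 1 library left out. A match was present in 67.5% at 40 bp, 81.9% at 100 bp, 25.5% without mismatch and 96.2% with 2 mismatches. At least 2 matches were present in 17.5% with 1 peak per list, 12.0% at 40 bp, 42.9% at 100 bp, 38.5% with the score filter, 1.67% without mismatch and 53.1% with 2 mismatches. The score ratio was 0.369 at 40 bp, 0.398 at 100 bp and 0.446 with the score filter, and 0.320 to 0.417 with 1 library left out. Several peaks were present in 4.62% at 40 bp, 23.8% at 100 bp and 17.6% with the score filter, and a promoter in 21.0% at 100 bp. A lower minimum adds regions and a higher one removes them by construction, and leaving out a library also drops the condition on its replicate. The other causes were not tested.

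No paired analysis was possible because no result comes from a test. With replicate numbers matched, both displacements reached 60 bp in the same direction in 198 of 239 regions. There are 2 libraries per genotype from a clone each, depth is unknown, and peak lists show summits and not the signal between them, so how far 2 summits differ in height within a peak cannot be told.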
